A study of Homo sapiens with 6 samples.

Results

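Eph receptors and their ephrin ligands were followed in cells labelled G361, a human melanoma line, with and without depletion of VprBP, the substrate receptor of a ubiquitin ligase that is encoded by DCAF1. Members were the rows of the deposited count table named EPHA1, EPHA2, EPHA4, EPHB2, EPHB3, EPHB4, EPHB6, EFNA1, EFNB1 and EFNB2, which are 10 of its 21494 genes, and all 10 passed the filter on low counts. RNA-seq compared 3 samples expressing a control shRNA (Control sh; labelled WT in genotype) with 3 samples expressing an shRNA against VprBP (VprBP sh; labelled DCAF1 Knockdown), numbered 1 to 3 in each group. According to the methods, the shRNAs were delivered by lentivirus from pLKO.1, the infected cells were selected in puromycin, and a single shRNA sequence against VprBP was used. The paper also describes depleted cells given shRNA-resistant VprBP, but no such samples are among those compared here. In these samples an effect of the sequence itself therefore cannot be told apart from depletion of VprBP. Nothing in the labels says that the samples of a group came from separate cultures, and p-values therefore measure only the spread between these samples, which may be technical.

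Eph receptors form a large family of receptor tyrosine kinases, and their ligands, the ephrins, stay attached to the surface of the neighbouring cell, so that signalling needs contact between cells and runs into both of them. Ephrin-A ligands are held in the membrane by a lipid anchor and bind mainly EphA receptors, whereas ephrin-B ligands span the membrane, carry a cytoplasmic tail and bind mainly EphB receptors, with EPHA4 as a receptor for both classes. The system is known for keeping cell populations apart, for guiding axons and for shaping vessels and epithelia, and EPHA2 has been studied widely in melanoma and other cancers.

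The samples held between 18195926 and 26883925 estimated counts, and mitochondrial transcripts took 1.96% to 1.98% of them in Control sh samples and 4.10% to 4.48% in VprBP sh samples. For DCAF1 itself the Control sh samples gave 688, 893 and 884 counts and the VprBP sh samples 681, 488 and 628, or 860 ± 89.7 (SD, n = 3) against 577 ± 153 after scaling, a log2 fold change of -0.58 (SE 0.17, adjusted p = 0.0125 in edgeR) that did not reach the 2-fold cutoff, with DCAF1 sharing 1325 exonic bases with RBM15B on the opposite strand, for which the samples gave 1551, 1443 and 1470 counts against 2178, 2994 and 3901. Replicates 2 and 3 of each group were much closer to each other than to replicate 1 (chi-square per degree of freedom of 2.50 and 2.36, against 17.6 to 29.1 for the pairs with replicate 1). LD611 stands as the cell source in the labels, beside G361 as the cell line, so the identity of the cells is in doubt. Of 8 melanocyte genes 4 were measured, and the others, SOX10, TYR, DCT and S100B, were not analysed here. Level per length in this text is the estimated count per kilobase of exonic sequence, scaled to a sum of 1000000 over all genes of a sample, and on it the sum of the 4 melanocyte genes ranged over 5.56 to 6.79 in Control sh samples and 7.33 to 9.26 in VprBP sh samples, against 3839 to 4107 and 6140 to 8436 for 5 pan-epithelial genes. KRT19 held the largest part of the pan-epithelial sum (means of 2189 and 4773). EPCAM, KRT8 and KRT18 were also higher in VprBP sh, while CDH1 was lower (293 and 205). On that scale 8 urothelial genes summed to 4315 to 4755 and 1208 to 1352, 6 endothelial genes to 17.8 to 19.7 and 0.872 to 1.22, and 4 fibroblast genes to 16.4 to 16.9 and 9.87 to 12.8. COL1A1 (means of 13.5 and 11.6) held most of the fibroblast sum, and CDH5 (13.8 and 0.058) most of the endothelial sum in Control sh. VWF and KDR fell as well, PECAM1 did not (0.46 and 0.56), and TEK and CLDN5 had at most 10 counts in every sample. Most of the urothelial sum was from the keratins KRT5 (means of 2765 and 162) and KRT7 (1543 and 1027). UPK1B (50.6 and 0) and UPK2 (33.0 and 7.36) also fell, while PPARG rose (4.07 and 11.6). From these lists UPK3A, KRT20, TIE1, COL3A1, DCN and THY1 were not analysed here. At the level of single genes, the basal epithelial factor TP63 had 8715, 7670 and 8806 counts in the Control sh samples and 9, 8 and 13 in VprBP sh, while GATA3 had 7, 1 and 0 against 1580, 1334 and 1873. TP63 and GATA3 differed between the same groups as the Eph genes described next, whereas the melanocyte genes MITF and PMEL changed less (log2 fold changes of 0.46 and 0.07). What part the marker genes have in the results was not tested. Because the RNA is from bulk samples, fewer cells of a kind and less RNA per cell cannot be told apart.

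Across the 10 genes, the ephrin EFNB1 and the receptors EPHA2 and EPHB2 had the largest changes, and all 3 fell in VprBP sh. EPHA1 also fell, while the receptors EPHA4, EPHB3 and EPHB6 and the ephrin EFNB2 rose, and EPHB4 and EFNA1 did not reach the call. The call required an adjusted p under 0.05 together with a fold change over 2, and 8 of the 10 members met it, 4 up and 4 down, where 46.4% of the 16756 genes tested were called, 24.5% up and 22.0% down. The groups of normalized counts, which are counts scaled by upper quartile factors, did not overlap for 9 of the 10 members, against 79.5% of all genes tested. All 10 had an adjusted p under 0.05 at any fold, against 76.4% of all genes tested. For EPHB4 this did not hold with every scaling, test, filter and sample choice, as given below. The median log2 fold change of the members was -0.33 and their median absolute change 1.39, beside 0.08 and 0.92 over all genes tested.

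**Figure D1:**
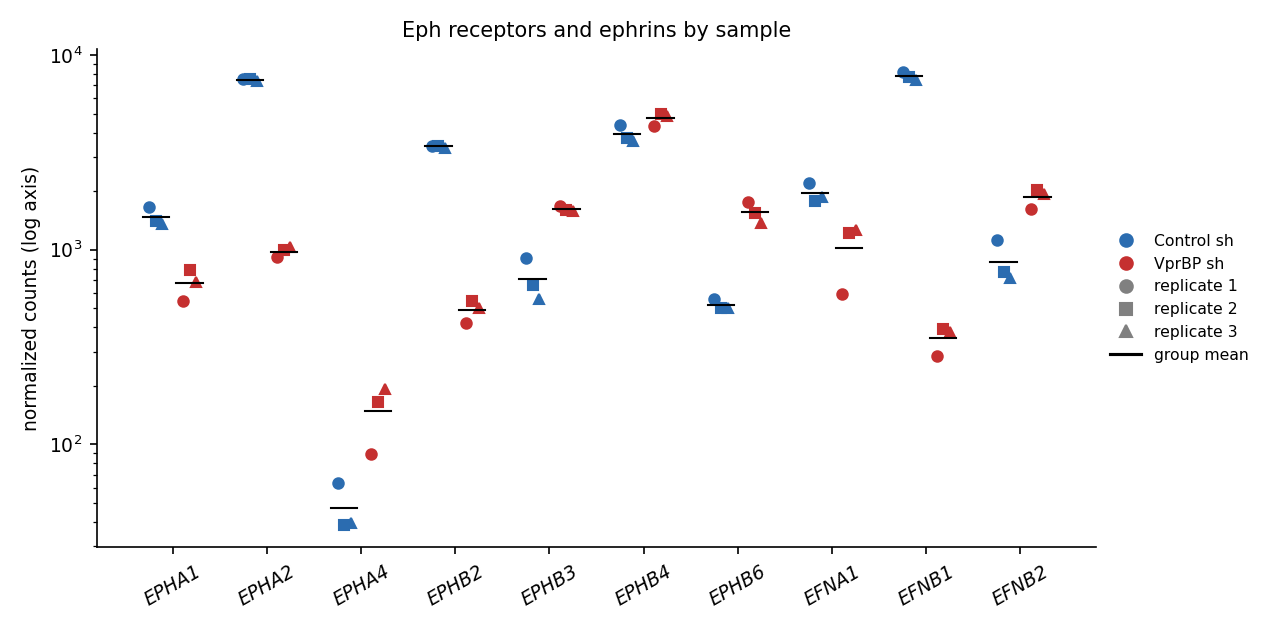
Normalized counts (log axis) of the 10 members in each sample, with Control sh and VprBP sh as separate colours, 1 point per sample shaped by replicate and a bar at the group mean. EFNB1, EPHA2 and EPHB2 sit far lower in all 3 VprBP sh samples, and EPHB4 is the member whose groups overlap.

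Among the EphA receptors, EPHA2, which binds ephrin-A ligands and is abundant in epithelia, was the most strongly expressed in Control sh. EPHA2 (ENSG00000142627.13, hg38 chr1:16124337-16156069, minus strand) had 7543, 7522 and 7401 normalized counts in Control sh and 915, 992 and 1029 in VprBP sh. The samples within a group were close to each other and the groups lay far apart. Its mean fell from 7489 ± 77.1 to 979 ± 58.0 (SD, n = 3), a log2 fold change of -2.93 (SE 0.08, adjusted p = 3.21e-09 in edgeR), or 7.65-fold lower. In absolute change, EPHA2 ranked above 82.6% of all genes tested.

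EPHA1 (ENSG00000146904.9, hg38 chr7:143390289-143408856, minus strand) is another EphA receptor found mainly in epithelia. It gave 1656, 1402 and 1359 normalized counts in Control sh and 545, 789 and 686 in VprBP sh, with no overlap. The decrease from 1472 ± 160 to 673 ± 123 was 2.18-fold, with a log2 fold change of -1.13 (SE 0.14, adjusted p = 5.76e-05 in edgeR). The fold fell under the cutoff without replicate 1 of both groups and with scaling by library size alone, with a log2 fold change of -0.91 in each case. EPHA1 shares 82 exonic bases with ZYX, the gene of the focal adhesion protein zyxin on the opposite strand, which had 6078, 5398 and 6302 counts in the Control sh samples and 803, 1173 and 1639 in VprBP sh, and whether the authors counted reads by strand is not given in the sources used here, so reads of overlapping genes on opposite strands cannot be told apart.

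EPHA4, the receptor that accepts ligands of both classes, moved the other way from a low level. EPHA4 (ENSG00000116106.12, hg38 chr2:221418027-221574202, minus strand) had 63.1, 38.7 and 39.4 normalized counts in Control sh and 89.5, 166 and 192 in VprBP sh. Replicate 1 was the highest Control sh sample and the lowest VprBP sh sample. The mean rose from 47.1 ± 13.9 to 149 ± 53.2, which is 3.20-fold, with a log2 fold change of 1.68 (SE 0.32, adjusted p = 0.000907 in edgeR), and the standard error was the widest of the 10 members. A long noncoding gene on the opposite strand, ENSG00000272944, shares 353 exonic bases with EPHA4 and had 2, 3 and 6 counts in the Control sh samples and 16, 25 and 44 in VprBP sh, beside EPHA4 counts of 55, 36 and 42 and of 81, 161 and 253.

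The EphB receptors were split. EPHB2, a kinase-active receptor of ephrin-B ligands known for positioning cells along the intestinal crypt, fell. EPHB2 (ENSG00000133216.17, hg38 chr1:22710839-22921500, plus strand) had 3413, 3425 and 3343 normalized counts in Control sh and 421, 546 and 501 in VprBP sh. Its Control sh samples differed by little, and every VprBP sh sample lay below all of them. The mean fell from 3394 ± 44.2 to 489 ± 63.3, a log2 fold change of -2.79 (SE 0.11, adjusted p = 1.71e-08 in edgeR), or 6.93-fold lower.

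EPHB3 (ENSG00000182580.3, hg38 chr3:184561785-184582408, plus strand), which works beside EPHB2 in intestinal epithelium, rose. It had 904, 660 and 561 normalized counts in Control sh and 1668, 1605 and 1589 in VprBP sh. The VprBP sh samples were nearly equal, whereas replicate 1 was the highest in Control sh. The means of 708 ± 177 and 1621 ± 41.7 gave a log2 fold change of 1.20 (SE 0.16, adjusted p = 7.24e-05 in edgeR), a 2.29-fold rise.

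EPHB6 (ENSG00000106123.12, hg38 chr7:142855061-142871094, plus strand) is the EphB receptor whose kinase domain lacks catalytic activity. The values were 555, 499 and 499 normalized counts in Control sh and 1754, 1542 and 1373 in VprBP sh, so that the lowest VprBP sh sample lay well above the highest Control sh sample. EPHB6 rose 3.00-fold, from 518 ± 32.4 to 1556 ± 191, with a log2 fold change of 1.59 (SE 0.11, adjusted p = 1.14e-06 in edgeR).

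EPHB4 (ENSG00000196411.10, hg38 chr7:100802565-100827523, minus strand), the partner of EFNB2 in the separation of arteries and veins, had 4391, 3763 and 3606 normalized counts in Control sh and 4332, 4959 and 4881 in VprBP sh. The groups overlapped, because replicate 1 of VprBP sh lay below replicate 1 of Control sh. The log2 fold change was 0.27 (SE 0.10, adjusted p = 0.0307 in edgeR), a ratio of 1.21 that is short of the cutoff. With other scalings, tests, filters and sample choices the log2 fold change of EPHB4 lay between 0.15 and 0.48, with an adjusted p of up to 0.321.

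Of the ephrins, EFNB1 changed most. EFNB1 (ENSG00000090776.6, hg38 chrX:68829021-68842160, plus strand) encodes ephrin-B1, a ligand of EphB receptors, and had 8195, 7692 and 7455 normalized counts in Control sh and 283, 393 and 378 in VprBP sh. No sample came near the other group. The mean fell from 7781 ± 378 to 351 ± 59.6, which is 22.1-fold, with a log2 fold change of -4.47 (SE 0.13, adjusted p = 4.53e-09 in edgeR). In absolute change EFNB1 ranked above 88.4% of all genes tested.

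EFNB2 (ENSG00000125266.8, hg38 chr13:106489745-106535662, minus strand), the ephrin-B ligand that pairs with EPHB4 in vessels, moved in the opposite direction. There were 1120, 769 and 712 normalized counts in Control sh and 1614, 2033 and 1928 in VprBP sh. Replicate 1 was again the sample of each group nearest to the other group. The means of 867 ± 221 and 1858 ± 218 gave a log2 fold change of 1.10 (SE 0.17, adjusted p = 0.000214 in edgeR), or 2.15-fold higher. The rise kept its direction in every alternative, but the fold fell under the cutoff with RLE factors and with DESeq2 (log2 fold change of 0.98 in each), without Control sh replicate 3 (0.97) and with replicates 2 and 3 summed (0.94). ENSG00000284966 on the opposite strand shares 1822 exonic bases with EFNB2 and had 3 counts in each Control sh sample and 8, 15 and 15 in VprBP sh, beside at least 715 counts for EFNB2 in every sample.

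EFNA1 (ENSG00000169242.12, hg38 chr1:155127876-155134899, plus strand), an ephrin-A ligand of EPHA2 that was first known as a gene induced by tumour necrosis factor, had 2195, 1788 and 1860 normalized counts in Control sh and 592, 1215 and 1269 in VprBP sh. Every VprBP sh sample lay below every Control sh sample, and replicate 1 of VprBP sh was far below the others of its group. The means were 1948 ± 217 and 1025 ± 376, with a log2 fold change of -0.92 (SE 0.24, adjusted p = 0.00599 in edgeR), or 1.89-fold lower, which is short of the cutoff. Without VprBP sh replicate 1 the log2 fold change was -0.65, without VprBP sh replicate 2 it was -1.06 and without VprBP sh replicate 3 it was -1.11, and the last 2 pass the cutoff. Without replicate 1 of both groups it was -0.55.

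**Figure D2:**
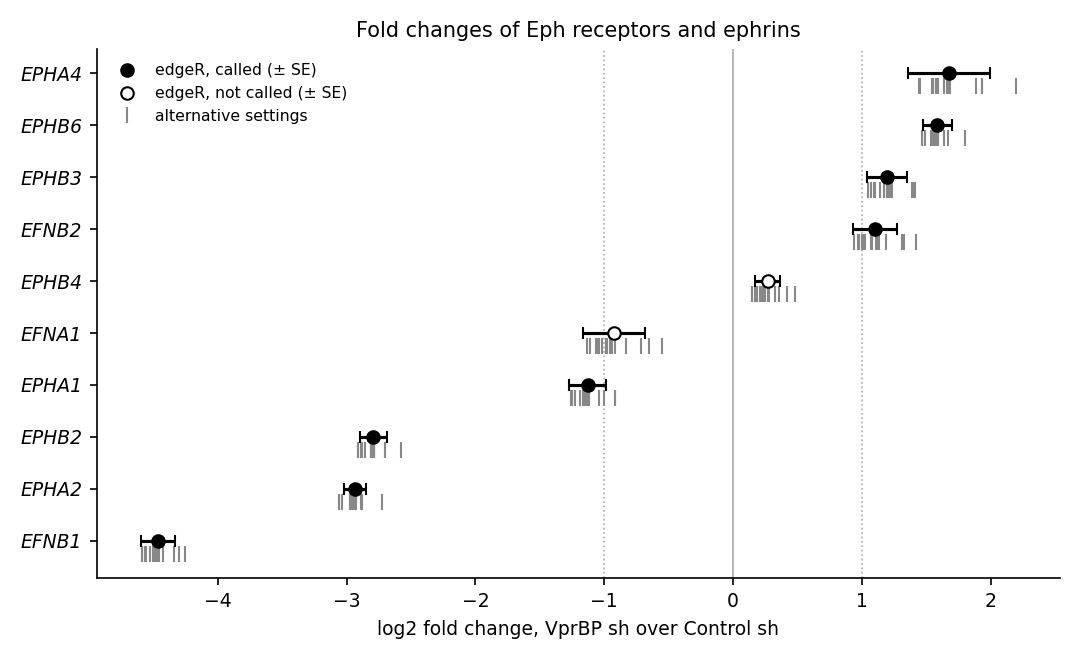
Log2 fold change of VprBP sh against Control sh for the 10 members (x axis), with bars of 1 standard error on each side, filled points for the genes called, open points for the others and small ticks for the alternative settings; dotted lines mark the 2-fold cutoff. EFNB1 at -4.47, EPHA2 at -2.93 and EPHB2 at -2.79 stand farthest from 0, and EPHB4 at 0.27 nearest.

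Promoters are shown for the 3 genes with the largest decreases and for EFNB2 and EPHB3, an ephrin and a receptor of the B class that rose, so that genes moving in opposite directions can be read side by side. Each line is the 250 bases before the RefSeq start (GRCh38.p14), read 5′ to 3′ on the strand of the gene, with capitals where a motif was found on either strand: TATAAA for the TATA box, TGACGTCA for the CRE, TGANTCA for the AP-1 site, GGGCGG for the GC box, and the CCAAT box, whose name gives its letters.
EFNB1, chrX:68828771-68829020, plus strand: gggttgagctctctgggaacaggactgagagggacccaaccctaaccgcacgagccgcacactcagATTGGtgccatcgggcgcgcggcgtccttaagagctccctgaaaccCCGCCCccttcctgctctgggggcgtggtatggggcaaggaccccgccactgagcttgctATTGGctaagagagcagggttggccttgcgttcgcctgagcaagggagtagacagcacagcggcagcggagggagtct
EPHA2, chr1:16156070-16156319, minus strand: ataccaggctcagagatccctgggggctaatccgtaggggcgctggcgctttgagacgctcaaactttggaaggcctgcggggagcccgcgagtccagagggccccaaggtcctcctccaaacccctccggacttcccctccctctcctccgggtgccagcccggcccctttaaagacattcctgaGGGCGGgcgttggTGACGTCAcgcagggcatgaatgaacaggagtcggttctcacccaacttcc
EPHB2, chr1:22710588-22710837, plus strand: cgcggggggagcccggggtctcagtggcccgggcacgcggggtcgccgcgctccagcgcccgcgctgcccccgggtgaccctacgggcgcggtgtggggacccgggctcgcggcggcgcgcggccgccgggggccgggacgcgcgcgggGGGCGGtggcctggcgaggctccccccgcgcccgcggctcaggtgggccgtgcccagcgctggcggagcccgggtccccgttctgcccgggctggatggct
EFNB2, chr13:106535663-106535912, minus strand: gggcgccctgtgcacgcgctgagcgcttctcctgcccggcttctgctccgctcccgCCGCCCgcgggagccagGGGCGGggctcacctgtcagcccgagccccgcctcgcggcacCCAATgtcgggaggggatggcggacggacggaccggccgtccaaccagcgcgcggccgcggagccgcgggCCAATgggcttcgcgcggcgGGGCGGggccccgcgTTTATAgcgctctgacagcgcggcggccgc
EPHB3, chr3:184561535-184561784, plus strand: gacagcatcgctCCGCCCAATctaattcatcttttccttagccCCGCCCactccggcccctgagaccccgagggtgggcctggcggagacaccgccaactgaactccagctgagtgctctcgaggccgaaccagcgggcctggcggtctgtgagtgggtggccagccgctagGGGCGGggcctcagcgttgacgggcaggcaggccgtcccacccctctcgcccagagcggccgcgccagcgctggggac

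All 10 members matched the RefSeq promoter table, EPHB2 and EPHA4 with more than 1 start. The CRE in EPHA2, 51 bases before the start, was the only one among the members, and 1.64% of 34788 promoters of the same length hold these letters. A GC box was found in at least 1 window of 10 of 10 members and in 42.6% of all promoters, a CCAAT box in 7 of 10 and in 32.0%, and a TATA box in EFNB2 alone, 30 bases before the start, and in 10.8%. The AP-1 letters, present in 6.59% of all promoters, were in none of the members' windows. In EPHB3 the CCAAT box 234 bases before the start overlaps the GC box at 238. The window of EPHB2 was 84.8% G and C with 42 CpG dinucleotides and that of EFNB2 78.4% with 40, against 63.6% with 15 for EFNB1, 63.2% with 15 for EPHA2 and a median of 58.0% with 11 over all promoters. In these 5 genes the windows of genes that fell and of genes that rose shared GC boxes and a GC content above the median. The GC content was not above the median in every member that rose. The window of EPHB6 was 48.0% G and C with 3 CpG dinucleotides. For EPHA4, 1 window was 43.2% with 9 and the other 78.0% with 30. A match of letters is a description of the window only.

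Level per length allows genes to be ordered within a group. In Control sh EFNB1 stood first at 418 ± 20.7 and EPHA2 second at 321 ± 4.16, followed by EFNA1 at 160 ± 17.8, EPHB4 at 108 ± 11.5, EPHA1 at 55.7 ± 6.08 and EPHB2 at 48.2 ± 0.77. EFNB2 at 30.8 ± 7.84 and EPHB3 at 27.8 ± 6.94 overlapped in range. Within each Control sh sample EFNB2 was the higher (39.74, 27.40 and 25.20 against 35.45, 25.95 and 21.94). EPHB6 at 17.3 ± 1.08 and EPHA4 at 1.11 ± 0.33 came last. In VprBP sh the order began with EPHB4 at 141 ± 8.33. EFNA1 at 90.9 ± 32.2 overlapped EFNB2 at 71.4 ± 7.56, which overlapped EPHB3 at 68.9 ± 3.08, so these neighbours did not differ beyond their spread. EPHB6 at 56.4 ± 8.02 and EPHA2 at 45.5 ± 1.85 came next, then EPHA1 at 27.6 ± 4.79 and EFNB1 at 20.5 ± 3.21. The ranges of EPHA1 and EFNB1 overlapped, but EPHA1 was the higher within each VprBP sh sample (22.78, 32.37 and 27.59 against 16.82, 22.93 and 21.61). EPHB2 at 7.53 ± 0.90 and EPHA4 at 3.78 ± 1.29 closed the order. The most strongly expressed ephrin and receptor of Control sh thus stood eighth and sixth by mean in VprBP sh. With the length of the canonical transcript in place of all exonic bases, the Control sh order was the same for 10 of 10 members and the VprBP sh order for 8 of 10.

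As a share of the summed level of all measured Eph receptors, EPHA2 took 52.9%, 56.4% and 57.2% in Control sh and 12.3%, 12.3% and 13.2% in VprBP sh. EPHB4 held 18.6% ± 1.04 of it (SD, n = 3) in Control sh and 39.1% ± 1.52 after depletion, although its own count did not reach the call. The share of EPHB3 was 4.76% ± 0.94 and 19.1% ± 1.19, that of EPHB6 2.98% ± 0.06 and 15.6% ± 2.39, and that of EPHB2 8.32% ± 0.35 and 2.08% ± 0.19. EphA receptors together made up 65.3% ± 1.66 of the receptor level in Control sh and 24.2% ± 1.83 in VprBP sh, so the receptor pool was mostly EphA in Control sh and mostly EphB in VprBP sh. Its sum was 580 ± 29.2 and 362 ± 11.9.

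Among ephrins the class shares moved the other way. EFNB1 took 60.7%, 64.0% and 63.0% of the summed ephrin level in Control sh and 5.82%, 5.25% and 5.02% in VprBP sh. EFNA1 had similar shares in the groups, 23.8% ± 1.06 and 23.0% ± 3.87, while EFNB2 went from 4.56% ± 0.80 to 18.9% ± 2.64. EFNA4 had 6.07% ± 0.15 and 26.1% ± 0.38, so that EFNA4 and EFNA1 had the largest mean shares in VprBP sh. Their order depended on the length used: with canonical transcripts EFNA1 had 28.9% and EFNA4 23.6%. Ephrin-A ligands made up 32.8% ± 1.03 of the pool in Control sh and 72.5% ± 3.26 in VprBP sh, and the sum of the pool was 670 ± 49.7 and 386 ± 83.5. With 3 samples against 3, an exact two-sided permutation test of any such share cannot go below p = 0.1, so the shares are given as values.

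**Figure D3:**
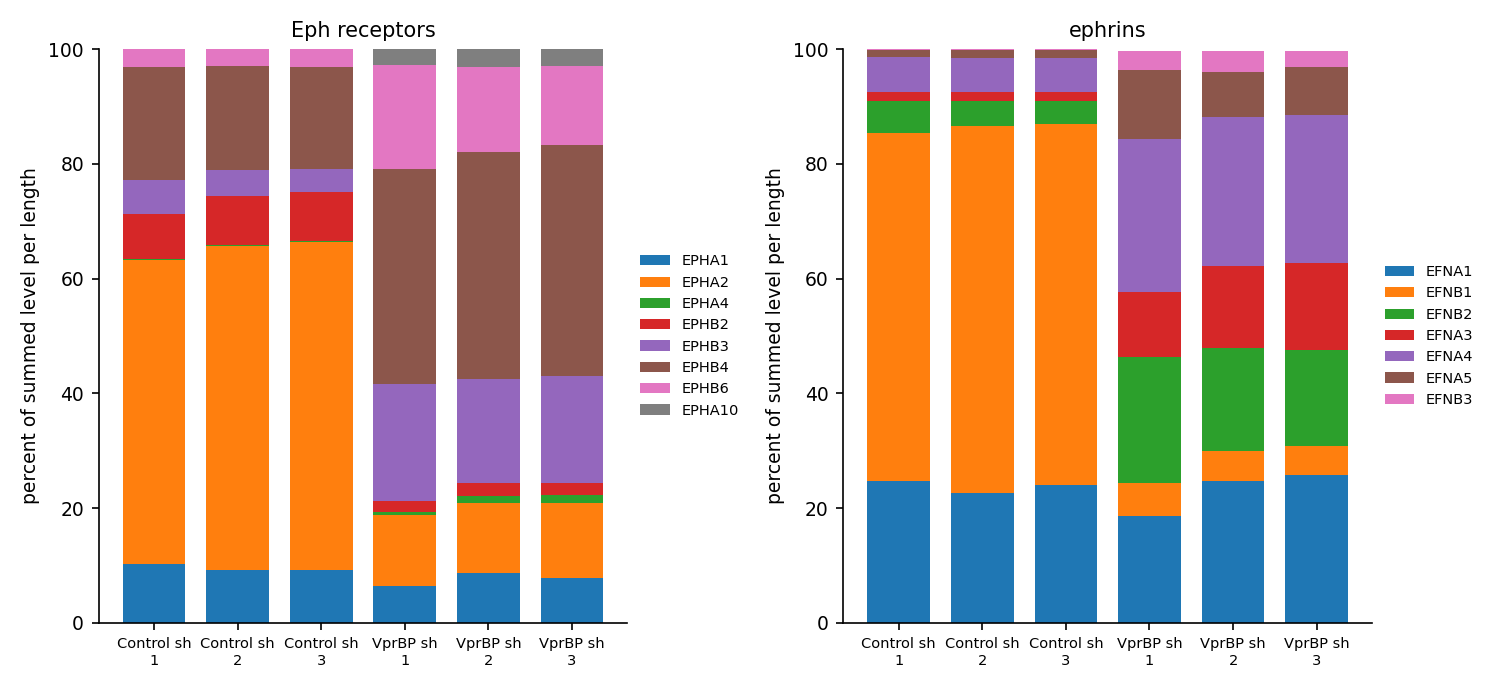
Share in percent of the summed level per length (y axis) that each gene takes among Eph receptors and among ephrins, 1 stacked bar per sample on an axis from 0 to 100; EPHA6 and EFNA2, at most 0.398% in any sample, are not drawn. EPHA2 and EFNB1 hold the largest parts of the Control sh bars, EPHB4 the largest part of the VprBP sh receptor bars, and EFNA4 and EFNA1 the largest mean parts of the VprBP sh ephrin bars, in an order that depends on the length used.

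Ratios between genes of the same sample do not depend on how samples are scaled. EFNB1 exceeded EFNB2 by 11.1, 15.2 and 15.9 times in Control sh, whereas the ratio was 0.266, 0.293 and 0.297 in VprBP sh, a 48.7-fold difference between the geometric means. The ratio of EPHA2 to EPHB4 was 2.67, 3.11 and 3.19 in Control sh and 0.328, 0.311 and 0.328 in VprBP sh. That of EPHB3 to EPHB2 was 0.732, 0.532 and 0.464 against 10.9, 8.12 and 8.77, and that of EPHA1 to EPHB6 was 3.38, 3.18 and 3.09 against 0.352, 0.580 and 0.567. In each of these pairs the gene with the higher level per length was a different one in the 2 groups, in 3 of 3 samples of each. Each pair sets a gene called down against a gene that rose or was not called, and other pairs did not all switch. EPHB2 (ratios to EPHB4 of 0.400, 0.468 and 0.477 against 0.050, 0.057 and 0.053) and EPHB6 (0.153, 0.160 and 0.167 against 0.49, 0.38 and 0.34) stayed below EPHB4. EFNA1 stayed above EFNA3, as given below. It changed order with EFNA4 with all exonic bases, but not by mean with canonical transcripts (ratios of 5.47 and 1.23).

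The rest of the family was read from a list of 12 genes, of which 5 (EPHA3, EPHA5, EPHA7, EPHA8 and EPHB1) were not analysed here and 6 passed the filter on low counts. Those 6, EPHA10, EFNA2, EFNA3, EFNA4, EFNA5 and EFNB3, were all called up. Among them, EPHA10 and EFNA2 were near 0 in Control sh and EFNB3 was low there (18, 13 and 9 counts). These genes passed the filter through VprBP sh, so nothing is read from this count. EPHA10, a receptor without kinase activity, had 1, 3 and 0 counts in the Control sh samples and 354, 475 and 602 in VprBP sh, at least 141-fold higher against a floor of 3 counts per sample. EFNA2, an ephrin-A ligand, had 1, 0 and 0 counts against 10, 16 and 29, at least 5.22-fold higher. EFNB3, a transmembrane ligand known from the midline of the nervous system, had 20.7, 14.0 and 8.45 normalized counts against 158, 264 and 200, given as values with no test.

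The remaining ephrin-A ligands were present in both groups. EFNA5 had 267, 277 and 283 normalized counts in Control sh and 1020, 1034 and 1085 in VprBP sh (log2 fold change 1.92, SE 0.10, adjusted p = 1.02e-07 in edgeR), with little spread in either group. EFNA3 had 122, 114 and 110 against 328, 631 and 670 (2.24, SE 0.26, adjusted p = 2.79e-05 in edgeR), and EFNA4 had 320, 276 and 267 against 491, 739 and 739 (1.19, SE 0.17, adjusted p = 0.000136 in edgeR). EFNA1, EFNA3 and EFNA4 lie in the same region of chromosome 1, EFNA3 ending 40.3 kb before EFNA1 begins, and in all 3 replicate 1 was the lowest VprBP sh sample. Per length, EFNA1 exceeded EFNA3 by 16.2, 14.1 and 15.2 times in Control sh and by 1.62, 1.73 and 1.70 times in VprBP sh. EFNA3 and EFNA4 share 853 and 189 exonic bases with a readthrough gene on the same strand that was not analysed here, which makes the split of reads between them uncertain. EPHA6, the last of the list, had 2, 2 and 10 counts in the Control sh samples and 0 in every VprBP sh sample, and was not tested.

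**Figure D4:**
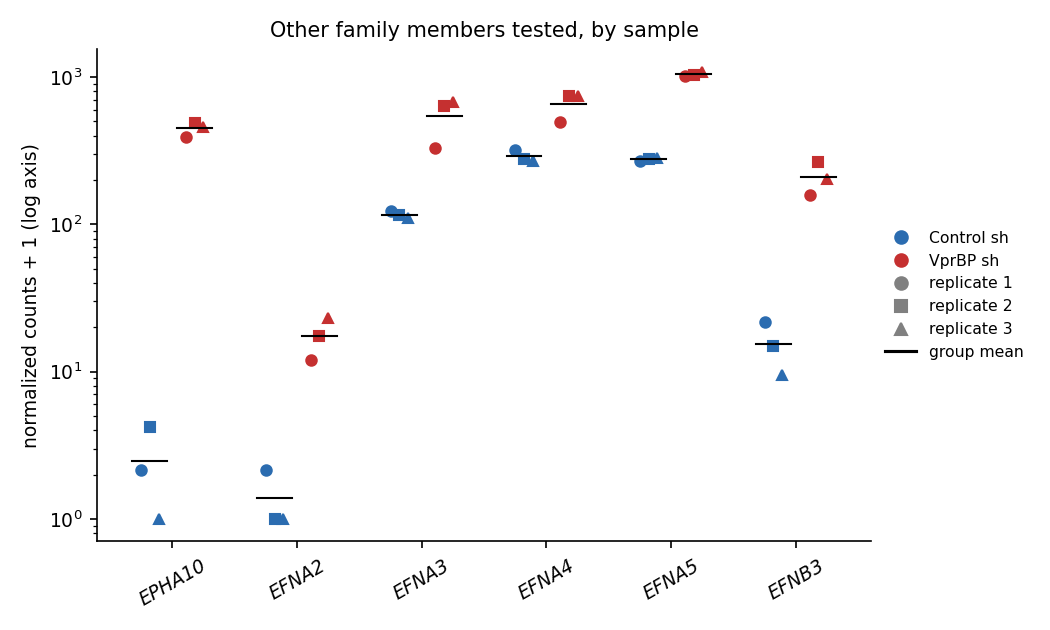
Normalized counts plus 1 (log axis) in each sample for the 6 tested genes of the family outside the 10 members, with 1 point per sample coloured by group and shaped by replicate, and a bar at the group mean. In each of the 6 genes the 3 VprBP sh samples lie above the 3 Control sh samples, where the groups did not overlap for 79.5% of all genes tested. EPHA10, EFNA2 and EFNB3 passed the filter through VprBP sh, so nothing is read from this count.

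Among 47 genes whose products are known to work with Eph receptors and ephrins, 45 were tested, and 6 were called up, 10 down and 29 not at all, beside 24.5% up and 22.0% down (46.4% in all) among all genes tested. Their median log2 fold change was -0.29 and their median absolute change 0.65, beside 0.08 and 0.92 over all genes tested. Neither the 6 GTPases and effectors nor the 4 phosphatases tested held a called gene.

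Of 7 cytoplasmic kinases tested, 3 were called down and 0 up, beside 22.0% down and 24.5% up among all genes tested, and nothing is read from this count. ABL1 and YES1 were higher in VprBP sh by less than the cutoff (log2 fold changes of 0.71 and 0.33). LYN, a Src-family kinase, had 4111, 3979 and 3982 normalized counts in Control sh and 16.6, 28.8 and 33.4 in VprBP sh, a log2 fold change of -7.21 (SE 0.17, adjusted p = 1.30e-09 in edgeR). SRC went from 5083 ± 295 to 964 ± 134 (-2.40, SE 0.11, adjusted p = 7.09e-08 in edgeR), and PTK2, the focal adhesion kinase, from 5192 ± 562 to 1573 ± 18.2 (-1.72, SE 0.09, adjusted p = 1.76e-07 in edgeR). Among 10 adaptors, which couple the phosphorylated receptor to other proteins, SHC1 (4942 ± 311 and 1385 ± 96.4, log2 fold change -1.84) and GRB7 (2110 ± 375 and 852 ± 219, -1.30) fell and NCK2 (1557 ± 28.1 and 3505 ± 379, 1.17) rose. SH2D3C fell as well, and 6 adaptors were not called, where 46.4% of all genes tested were called.

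Regulators of GTPases were called in both directions, 4 of 10 up and 2 down, beside 24.5% up and 22.0% down among all genes tested, and nothing is read from this count. VAV3, a guanine nucleotide exchange factor, rose from 243 ± 12.9 to 2648 ± 388 normalized counts (log2 fold change 3.45), while its relative VAV2 fell from 2547 ± 566 to 809 ± 82.2 (-1.65). NGEF, the exchange factor ephexin that binds EPHA4, rose from 48.1 ± 5.79 to 184 ± 31.0 (1.94), and TIAM1, an exchange factor for RAC1, from 753 ± 77.8 to 2099 ± 9.91 (1.48). RASA1 also rose and CHN1 fell.

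Genes that act on ephrin-B tails and on the cleavage of ephrins included further called genes. SDCBP, the PDZ protein syntenin that binds the tails of ephrin-B ligands, fell from 4873 ± 122 to 821 ± 107 normalized counts (log2 fold change -2.57), and RGS3, which links these tails to G protein signalling, rose from 498 ± 33.1 to 1179 ± 186 (1.24). ADAM10, the protease that cuts ephrins from the membrane, fell from 13731 ± 323 to 3611 ± 101 (-1.93), the largest level in normalized counts among the called genes of this list. The other 3 PDZ partners and the other 2 genes of cleavage and turnover were not called, where 46.4% of all genes tested were called.

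**Figure D5:**
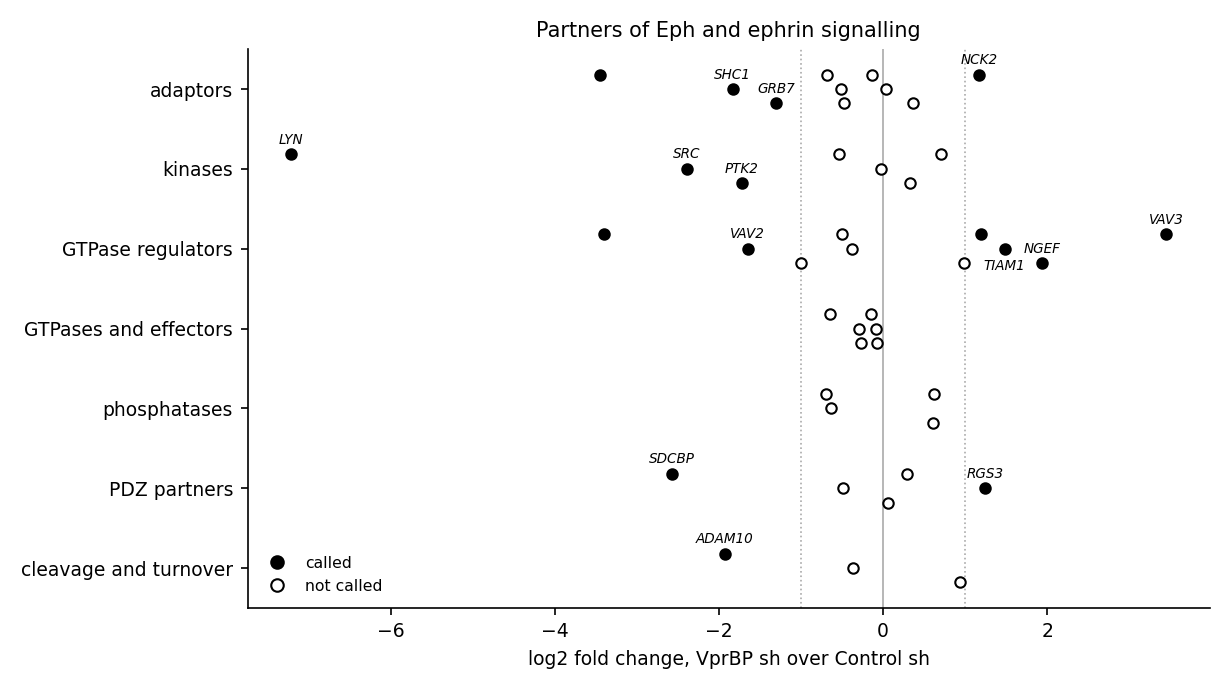
Log2 fold change of VprBP sh against Control sh (x axis) for the 45 tested signalling partners, grouped by role on the y axis, with filled points for called genes, open points for the others and dotted lines at the 2-fold cutoff. LYN at -7.21 and VAV3 at 3.45 lie at the ends, and neither the GTPases and effectors nor the phosphatases hold a filled point.

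The genes beside the called members moved in different ways. Of 10 tested protein-coding neighbours of these 8 members, 4 were called in the direction of the member, 2 in the opposite direction and 4 not at all, where 46.4% of all genes tested were called, and nothing is read from this count. FAM131C, 50.7 kb from EPHA2, had 381, 314 and 353 counts in the Control sh samples and 16, 17 and 29 in VprBP sh, whereas ARHGEF19 on its other side, at 41.8 kb, had 350, 363 and 436 against 780, 1217 and 1601. STARD8, 103 kb from EFNB1, had 7, 8 and 5 counts in the Control sh samples and 399, 408 and 561 in VprBP sh, opposite to the decrease of EFNB1. EPHB3, EPHB6, EFNA1 and EFNB1 overlap no other gene in the annotation, and SLC12A9, which shares 69 exonic bases with EPHB4 on the opposite strand, had 1108, 1131 and 1195 counts against 1468, 1913 and 2493.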

How the data were processed

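Total RNA of 3 Control sh and 3 VprBP sh samples was sequenced. The methods name a strand-specific KAPA kit and the labels a SMARTER kit. Alignment to hg38 with STAR and quantification in Partek Flow were the work of the authors, per the labels and methods, and they deposited estimated counts per gene, of which 59.8% are whole. The methods name upper quartile normalization, but the deposited values are not normalized. The methods name an earlier GENCODE release than the one used here: 95.4% of the deposited gene starts match GENCODE 44, which gave exons, overlaps and lengths (for 99.8% of genes).

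Estimated counts were rounded and tested with edgeR 4.0.16 in R 4.3.3 (quasi-likelihood, upper quartile factors at quantile 0.75, filterByExpr with a minimum of 10, group as the only term), in place of the Partek algorithm, with Benjamini-Hochberg adjustment over 16756 genes. Dividing the log2 fold change by the root of F gave the SE. Totals per sample of 18195926 to 26883925 put the floor of 3 counts at 2.28 to 3.44 normalized counts. Floors cover counting error only. DESeq2 1.42.0 and limma-voom (limma 3.58.1) served as alternative tests. Tables were made in Python 3.11.15.

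The members and gene lists were chosen with earlier results of these data known. Named genes were DCAF1, the members, the tested genes of the family, the genes that overlap or neighbour members, the cell type markers and, per role of signalling partners, up to 3 called genes in each direction whose higher group averaged 100 normalized counts or more. SH2D3C, RASA1 and CHN1, called as well, ABL1, YES1, EPHA6 and the groups of phosphatases and of GTPases and effectors were named after their values were seen. The alternatives were TMM and RLE factors, library size alone, DESeq2, limma-voom, other filters, a replicate block, leaving out each replicate, replicates 2 and 3 summed and, added after seeing the data, leaving out replicate 1 of both groups.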

Additional observations from a re-analysis of the deposited data

How the results depend on the processing

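Over 16 alternatives each, 148 of 160 member values kept their direction and side of the cutoff, 6 lost the call and 6 gained it, none turned. EPHA2, EPHA4, EPHB2, EPHB3, EPHB6 and EFNB1 were called in 16 of 16, EPHA1 in 14, EFNB2 in 12, EFNA1 in 6 (with TMM -1.02, RLE -1.04 and DESeq2 -1.05 among them) and EPHB4 in 0. The number of members called ran from 7 to 9. Requiring 10 counts or more in every sample called 4690 of 13103 genes, against 7778 of 16756, a lower share, beside 8 members. It called 3 family genes in place of 6, because EPHA10, EFNA2 and EFNB3 fell short of 10 counts in at least 1 Control sh sample and were not tested. No filter called 9575 of 21494. DCAF1 passed an adjusted p of 0.05 except with library size alone (log2 fold change -0.37) and with replicates 2 and 3 summed (-0.46), for which the cause was not tested, and its adjusted p ranged from 4.69e-08 to 0.0851. Leaving out 1 replicate gave 7949 to 8142 called genes, 7 to 9 members, 6 family genes, 16 to 18 signalling partners and -0.82 to -0.46 for DCAF1. Scaling moved the median of all genes by -0.10 (TMM), -0.12 (RLE, DESeq2) or 0.21 (library size alone) on the log2 scale, and the share of called genes that rose was 48.8%, 47.9%, 47.7% and 60.1%, against 52.7%.

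Samples with the same number did not deviate together (correlations of -0.18, -0.06 and -0.12 over 12112 genes, for 3 numbers, and no sample correlated best with its own number). These values give no sign of pairing by number. With 3 samples per group, and replicate 1 apart from the others in each, they cannot exclude it. With a replicate block, 7686 genes, 8 members, 6 family genes and 16 partners were called, and DCAF1 was at -0.60. EPHB4 had an adjusted p of 0.0765 with the replicate block.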
